A study of Sus scrofa with 6 samples.

Results

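The genes described here are 7 markers by which bone marrow stromal cells and their niche are recognised: THY1, NT5E, ENG, CD44, CD34, VCAM1 and CXCL12. They were taken by gene symbol. Where several probe sets were annotated with that symbol alone, the brightest on average was used. All 7 were found, among 10872 named genes on the array. NT5E had 2 such probe sets and each of the others had 1.

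Mesenchymal stem cells of bone marrow are adherent stromal cells that can form bone, cartilage and fat. In human cultures they are defined by the surface proteins THY1 (CD90), NT5E (CD73) and ENG (CD105), usually with CD44, and by the lack of leukocyte antigens and of CD34. In the marrow, stromal cells secrete the chemokine CXCL12 and carry the adhesion molecule VCAM1, which hold blood stem and progenitor cells in place through the receptor CXCR4 and the integrin made of ITGA4 and ITGB1. VCAM1 is also a surface protein of activated endothelium and of some tissue macrophages.

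RNA was measured on 6 Affymetrix porcine arrays, each hybridised with RNA from a primary culture of marrow cells of female American Yorkshire pigs, 4 months old. The mandibular symphysis, where the left and right lower jaw join, gave the marrow for 3 cultures and the tibia that for 3, all at passage 0 and grown to 80% confluence in alpha-MEM with serum. The design text names 3 pigs as donors of both kinds of marrow, but no label ties a sample number to an animal. Whole marrow was seeded on culture plastic, per the labels' protocols, which name no sort to remove other adherent cells.

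Levels are on the log2 scale after RMA, so a difference of 1 is a doubling. They are comparable between arrays for the same probe set and not between different genes. The array medians lay between 5.63 and 5.71 and the lower quartiles between 3.86 and 3.94. The small number of arrays sets how precise any value can be. Levels near or below the lower quartile cannot be told from background, because the deposited values carry no detection call.

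A pair of arrays went against their site labels in genes of position. Each array was set, for 8 positional genes, against the mean of the other arrays of its own site and against the median of the opposite site. Mandibular 2 and tibial 3 were closer to the opposite site for 8 of the 8 genes, and each of the other 4 arrays for 0 of the 8. The 8 genes were chosen with earlier results of these data known. The count therefore describes these arrays and is not an independent test of the labels. HOXA7, a gene of trunk and limb identity, measured 5.26, 8.40 and 5.23 on mandibular 1, 2 and 3, against 8.01, 7.92 and 5.89 on tibial 1, 2 and 3. ALX1, a gene of craniofacial mesenchyme, measured 8.08, 3.86 and 7.44 in mandibular cultures, against 3.90, 3.54 and 7.97 in tibial cultures. Arrays are therefore called by their labels throughout, and the site differences of the 7 genes are given with and without the arrays labelled mandibular 2 and tibial 3.

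The 3 defining surface antigens and CD44 were measured above the array median on all 6 arrays, as were 6232 of all 10872 named genes. THY1, a GPI-anchored glycoprotein that binds integrins, measured 10.70, 10.63 and 10.50 in mandibular cultures, against 10.63, 10.61 and 10.64 in tibial cultures. The whole range was 0.20 log2 units, or 1.15-fold, and the mandibular values enclosed the tibial ones. The means were 10.61 ± 0.10 in mandibular and 10.63 ± 0.01 in tibial cultures (SD, n = 3 each).

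ENG, a co-receptor for TGFB and BMP ligands, measured 10.57, 10.03 and 10.54 in mandibular cultures, against 10.19, 9.47 and 9.91 in tibial cultures. The highest values were those of mandibular 1 and 3 and the lowest that of tibial 2, and the groups overlapped only because mandibular 2 lay below tibial 1. The means were 10.38 ± 0.31 in mandibular and 9.86 ± 0.36 in tibial cultures (SD, n = 3 each).

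NT5E, the ectoenzyme that makes adenosine from AMP outside the cell, measured 7.75, 8.61 and 7.05 in mandibular cultures, against 9.13, 8.03 and 7.66 in tibial cultures. Tibial 1 was highest and mandibular 3 lowest, 4.24-fold apart, and the groups overlapped. The means were 7.80 ± 0.78 in mandibular and 8.27 ± 0.76 in tibial cultures (SD, n = 3 each). The second NT5E probe set gave 7.11, 7.97 and 6.68 in mandibular cultures, against 8.47, 7.37 and 7.22 in tibial cultures, and ordered the mandibular arrays and the tibial arrays in the same way.

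CD44, the receptor for hyaluronan and osteopontin, measured 7.56, 7.40 and 8.19 in mandibular cultures, against 6.44, 7.01 and 8.13 in tibial cultures. The arrays numbered 3 were highest at both sites, tibial 1 was lowest, and the groups overlapped. The tibial arrays alone spanned 1.69 log2 units, more than the whole set of mandibular arrays, which spanned 0.79. On average CD44 stood at 7.72 ± 0.42 in mandibular and 7.20 ± 0.86 in tibial cultures (SD, n = 3 each).

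CD34, a sialomucin of blood progenitors and endothelium, lay below the array median on all 6 arrays. It measured 5.13, 4.78 and 4.50 in mandibular cultures, against 5.06, 5.03 and 4.78 in tibial cultures. The highest and the lowest value were both mandibular, so that the groups overlapped fully. On average CD34 stood at 4.81 ± 0.32 in mandibular and 4.95 ± 0.16 in tibial cultures (SD, n = 3 each).

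VCAM1 was the most variable of the 7 genes. It measured 4.28, 5.57 and 3.68 in mandibular cultures, against 9.52, 7.55 and 4.10 in tibial cultures. It was high on tibial 1 and tibial 2, intermediate on mandibular 2, and lowest on mandibular 1, mandibular 3 and tibial 3. The value on mandibular 3 was under the lower quartile of its array, and 4 of the 6 values, that of mandibular 2 included, were under the array median. Tibial 1 and mandibular 3 lay 5.85 log2 units apart, the lower of them at a level that cannot be told from background. The groups overlapped through tibial 3 alone. The means were 4.51 ± 0.97 in mandibular and 7.06 ± 2.75 in tibial cultures (SD, n = 3 each).

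CXCL12 lay below the array median on all 6 arrays and above the lower quartile. It measured 4.14, 4.39 and 4.29 in mandibular cultures, against 4.71, 5.06 and 4.26 in tibial cultures. Tibial 1 and tibial 2 were the highest, and tibial 3 lay among the mandibular values, so that the groups overlapped. The means were 4.27 ± 0.13 in mandibular and 4.67 ± 0.40 in tibial cultures (SD, n = 3 each). At these levels the array gives little room above background in which to see a change of CXCL12.

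**Figure D1:**
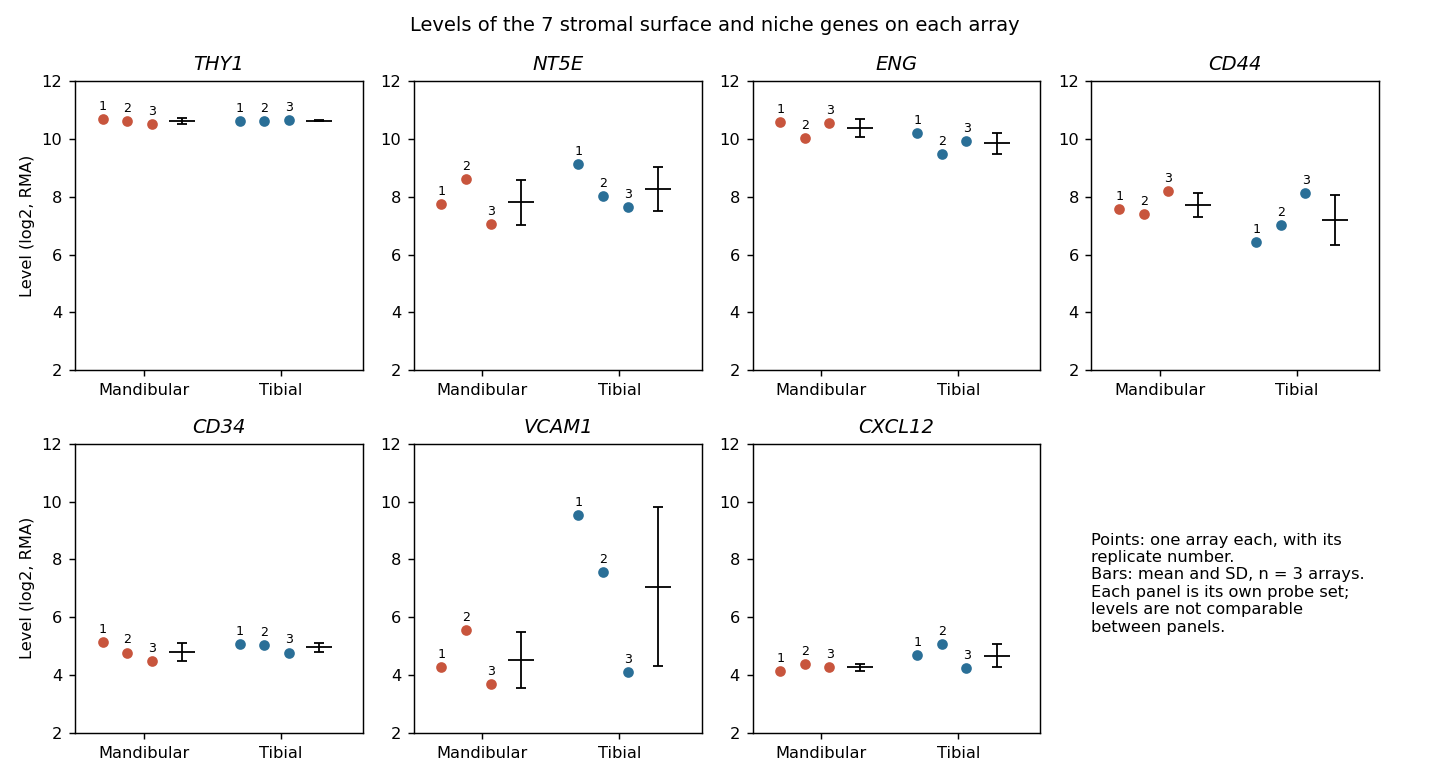
Level of each of the 7 genes (log2, RMA) on the 3 mandibular arrays and the 3 tibial arrays, with replicate numbers above the points and mean and SD beside them. THY1 lies between 10.50 and 10.70 on all arrays, while VCAM1 runs between 3.68 and 9.52, with tibial 3 among the mandibular values.

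The spread of the 7 genes over the arrays ran between the extremes of the whole table. Over all 10872 named genes the range, highest minus lowest array, had a median of 0.51 log2 units, and 1623 genes, or 14.9%, reached a range of 1 or more. VCAM1, NT5E, CD44 and ENG were among them, with ranges of 5.85, 2.08, 1.75 and 1.11. A smaller range than that of VCAM1 was found in 99.9% of genes. THY1 was at the other end, where 5.11% of genes had a smaller range. Among the 337 genes whose mean level lay within 0.5 of that of THY1, the median range was 0.46, and 5.04% had a smaller one. CXCL12 and CD34 had ranges of 0.92 and 0.63, which 82.7% and 65.1% of genes did not reach.

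**Figure D2:**
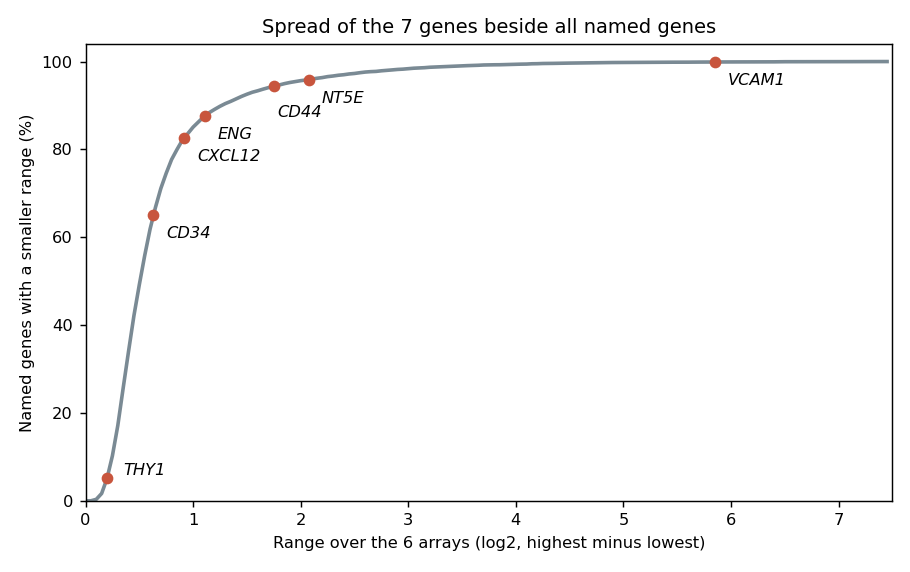
Percentage of the 10872 named genes (vertical axis) with a range over the 6 arrays smaller than the value on the horizontal axis (log2), as a curve, with the 7 genes as points. THY1 lies at 5.11% and VCAM1 at 99.9%.

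None of the 7 genes passed the test between the labelled sites. In limma, with p-values adjusted by the Benjamini-Hochberg method across the 27558 probe sets, 0 of the 7 passed an adjusted p of 0.05, as did 0% of all probe sets, and the adjusted p was 0.9995 for each. At an unadjusted p under 0.05 in limma there were 0 of the 7, against 3.03% of all probe sets. At that share a set as small as this, or as the lists below, can well hold 0. The 3 mandibular and 3 tibial values were free of overlap for 0 of the 7, against 6.92% of all probe sets. The median difference of the 7, mandibular minus tibial, was -0.15, with 2 higher and 5 lower, and that of all named genes was 0.01.

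The intervals show what the arrays could and could not resolve. For THY1 the difference was -0.01 (SE 0.11), with a 95% interval of -0.27 to 0.25, and its sign turned, to 0.01, after centring of the arrays on their medians. For ENG it was 0.52 (SE 0.23), or 1.44-fold, with an interval of -0.04 to 1.08. For CD34 it was -0.15 (SE 0.19), interval -0.59 to 0.30. These intervals leave room for about a doubling of ENG and for much smaller changes of THY1 and CD34. For CXCL12 the difference was -0.40 (SE 0.21), interval -0.91 to 0.10. The intervals were wider for NT5E, -1.66 to 0.72 around -0.47 (SE 0.50), and for CD44, -0.53 to 1.57 around 0.52 (SE 0.44). For VCAM1 the difference was -2.55 (SE 1.31), with an interval of -5.67 to 0.58.

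Leaving out the array labelled tibial 3 moved several of these values away from 0. VCAM1 then differed by -4.03 (SE 0.73), CXCL12 by -0.61 (SE 0.17) and CD44 by 0.99 (SE 0.29). At an unadjusted p under 0.05 in limma there were then 3 of the 7, against 7.51% of all probe sets, and the smallest adjusted p of the 7 was 0.172, that of VCAM1. With mandibular 2 and tibial 3 both left out, a choice made after the data were seen, the differences were -4.56 (SE 0.64) for VCAM1, -1.18 (SE 0.42) for NT5E, 1.15 (SE 0.30) for CD44, 0.73 (SE 0.27) for ENG and -0.67 (SE 0.20) for CXCL12. In that fit of 2 against 2 arrays, 5 of the 7 had an unadjusted p under 0.05 in limma, against 9.5% of all probe sets. None passed after adjustment, against 0.708% of all probe sets, and the smallest adjusted p was 0.0587, that of VCAM1. THY1 and CD34 differed by -0.02 (SE 0.17) and -0.23 (SE 0.25).

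Leaving out other single arrays also moved these values. Without tibial 1, VCAM1 differed by -1.31, CD44 by 0.15 and NT5E by -0.04. NT5E differed by -0.09 without mandibular 3 and by -0.87 without mandibular 2. Without tibial 2, CXCL12 differed by -0.21 and ENG by 0.33. CD44 differed by 0.29 without mandibular 3 and NT5E by -0.78 without tibial 3. CD34 differed by -0.31 without mandibular 1 and by -0.24 without tibial 3, and by 0.00 without mandibular 3.

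**Figure D3:**
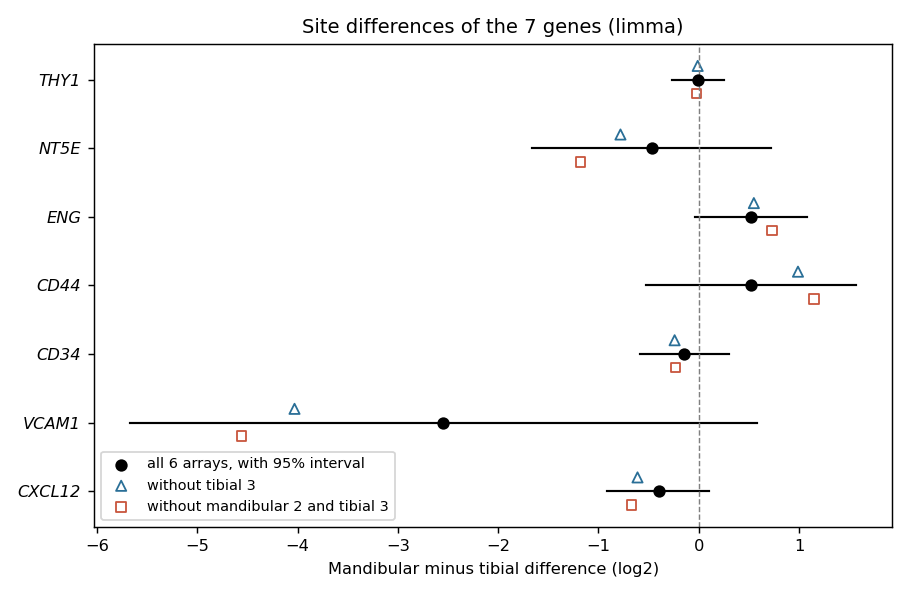
Mandibular minus tibial difference (log2) of each of the 7 genes in limma, with all 6 arrays and their 95% interval (filled circles and lines), without tibial 3 (triangles), and without mandibular 2 and tibial 3 (squares). All 7 intervals include 0, and VCAM1 lies at -2.55 with all arrays and at -4.56 without the 2 arrays.

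VCAM1 moved with the markers of macrophages. The 5 genes whose profile over the 6 arrays was nearest to that of VCAM1, among 1622 other genes with a range of at least 1, were CTSS, LCP1, MSR1, VSIG4 and GP91-PHOX. Nearness is the root mean square difference between profiles centred on their own means, and was 0.24 to 0.36 log2 units for these genes. Profiles were not scaled, so only genes with a range close to the 5.85 of VCAM1 could be near. The ranges of the 5 were 5.19 to 6.35, and 99.8% of all named genes had a range smaller than 5.15. The 5 were thus in effect drawn from few genes. CTSS, a lysosomal protease, measured 5.16, 6.96 and 4.50 in mandibular cultures, against 10.54, 8.99 and 5.19 in tibial cultures. VSIG4, a complement receptor of tissue macrophages, measured 2.70, 4.68 and 3.00 in mandibular cultures, against 8.22, 6.85 and 3.41 in tibial cultures. LCP1 encodes an actin-bundling protein of leukocytes, MSR1 a scavenger receptor and GP91-PHOX, also called CYBB, the catalytic chain of the phagocyte oxidase. On all 5, as on VCAM1, tibial 1 was highest, tibial 2 next and mandibular 2 after them. VSIG4 lay below the lower quartile on 3 arrays, MSR1 on 2 and GP91-PHOX on 1. Those low values cannot be told from background.

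The list of macrophage and monocyte markers had 19 measured of 24 members. Of these, 18 had a higher value on tibial 1 and on tibial 2 than on any other array, as did 989 of all 10872 named genes. The median difference of the 19 was -2.10, and 18 were lower in mandibular cultures, as were 5290 of all named genes. The exception was CD86, which measured 9.85, 7.80 and 9.87 in mandibular cultures, against 8.44, 7.44 and 9.64 in tibial cultures. The mean of the list was 4.97, 6.0 and 4.94 on mandibular 1, 2 and 3, against 8.27, 7.59 and 5.42 on tibial 1, 2 and 3. Summed over the 19 genes the level ran between 93.9 and 114.1 in mandibular and between 103.0 and 157.1 in tibial cultures. A sum of log2 levels is not an amount of RNA.

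None of these genes passed in limma with all arrays, and 9 of the 19 had an unadjusted p under 0.05, against 277 of all 10872 named genes. SPI1, which drives myeloid differentiation, differed by -1.96 (SE 0.69) and MRC1, the mannose receptor, by -2.25 (SE 0.86). MRC1 lay below the lower quartile on 3 arrays, at levels that cannot be told from background, which limits its differences. Without mandibular 2 and tibial 3 SPI1 and MRC1 differed by -3.01 and -3.54, with adjusted p of 0.0379 and 0.00749 in limma. That fit called 0.708% of all probe sets. These 2 arrays were left out after the data were seen. For both genes tibial 3 held the lowest tibial value and mandibular 2 the highest mandibular one, and the SE of MRC1 fell to 0.22. Both genes were named by their small p in the same data, so these adjusted p are no independent support. In these bulk cultures fewer cells of a type and less RNA per cell cannot be told apart. The part of macrophage RNA in the VCAM1 values was not tested.

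**Figure D4:**
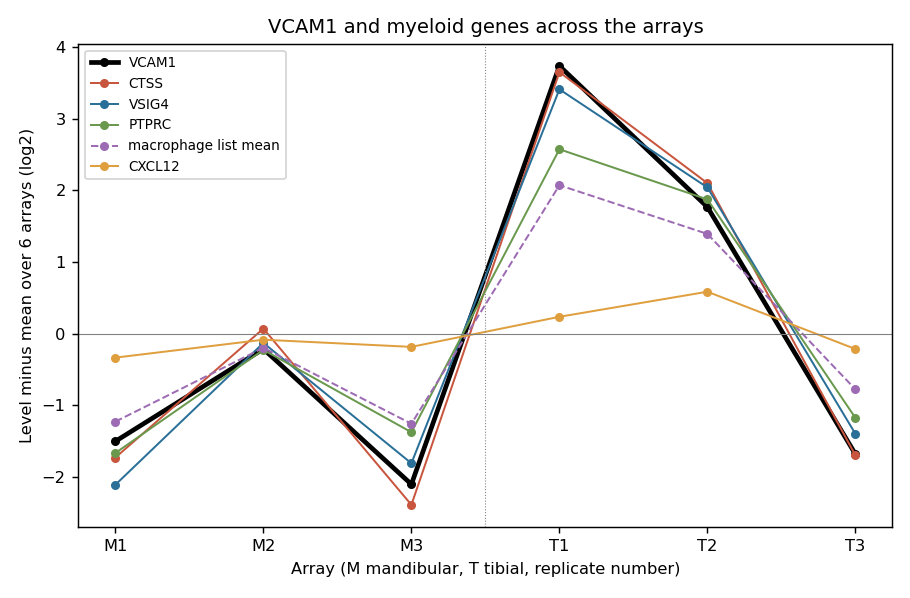
Level minus its own mean over the 6 arrays (log2) for VCAM1, the nearest gene CTSS, VSIG4, PTPRC, the mean of the macrophage list (dashed) and CXCL12, on the mandibular arrays (M) and the tibial arrays (T). VCAM1, CTSS, VSIG4, PTPRC and the list mean are highest on tibial 1, next on tibial 2 and then on mandibular 2, and CXCL12 is highest on tibial 2.

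Antigens that stromal cultures should lack followed the same arrays. PTPRC, the pan-leukocyte antigen, measured 3.42, 4.86 and 3.71 in mandibular cultures, against 7.66, 6.96 and 3.91 in tibial cultures. It lay below the lower quartile on 2 arrays, at levels that cannot be told from background. SLA-DRA, a class II histocompatibility chain, measured 3.97, 8.17 and 4.71 in mandibular cultures, against 9.56, 10.37 and 6.64 in tibial cultures. Both were high on tibial 1 and tibial 2, and both had their highest mandibular value on mandibular 2. CD14, the lipopolysaccharide co-receptor, differed by -0.77 (SE 0.29) and ITGAM, an integrin of myeloid cells, by -0.33 (SE 0.12). Each was without overlap between the sites, as were 6.92% of all probe sets. Without tibial 1 the difference of CD14 was -0.49. With mandibular 2 and tibial 3 left out, PTPRC differed by -3.75 and SLA-DRA by -5.62, with adjusted p of 0.0112 and 0.00814 in limma. That fit, chosen after the data were seen, called 0.708% of all probe sets. CD14 and ITGAM, which are also on the macrophage list, did not pass in it, with adjusted p of 0.136 and 0.502 in limma. The B cell gene CD79A stayed between 4.56 and 4.95, below every array median. Set against the label of mesenchymal stem cells, the 3 defining antigens were above the array median on all arrays. So was CD14, which such cells should lack, at 7.17 to 8.57. The same held for 6232 of all 10872 named genes, so this does not by itself show that CD14 was expressed. CD14 was at 7.17 to 7.38 on the mandibular arrays and tibial 3, and at 8.57 and 8.08 on tibial 1 and tibial 2. PTPRC was above the median on tibial 1 and tibial 2, and SLA-DRA on those arrays and on mandibular 2 and tibial 3. ITGAM, like CD79A, lay below it on all 6 arrays, at 4.94 to 5.51. These are RNA levels, and the arrays do not measure the surface proteins.

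Of the 12 measured lymphocyte genes, 11 lay below the array median on all arrays. On tibial 1 and on tibial 2, 3 were higher than on any other array, as were 989 of all 10872 named genes. The list mean was highest on tibial 1, at 4.66, and next on tibial 2, at 4.56, and was 4.41 to 4.52 elsewhere. CD4, a co-receptor of helper T cells, measured 4.00, 3.96 and 3.66 in mandibular cultures, against 5.27, 4.96 and 3.72 in tibial cultures. It was the only lymphocyte gene with a range of 1 or more, and lay below the lower quartile on 2 arrays. The highest value was on tibial 1 or tibial 2 for 7 of the 12, as for 4251 of all 10872 named genes. CD3D was highest on mandibular 3, CD3G and LCK on mandibular 1, CD2 on mandibular 2 and CD8A on tibial 3. Endothelial cells, which can also carry VCAM1, CD34 and ENG, were represented by 9 of 15 listed genes. KDR, a receptor for VEGF, lay between 2.81 and 3.76, below the lower quartile of every array. PECAM1, an adhesion molecule shared by endothelium and leukocytes, measured 5.60, 5.63 and 5.58 in mandibular cultures, against 6.36, 6.24 and 5.84 in tibial cultures, a difference of -0.55 (SE 0.16). ESAM, a junction protein of endothelium, measured 5.18, 5.34 and 4.94 in mandibular cultures, against 5.99, 5.57 and 5.53 in tibial cultures, a difference of -0.54 (SE 0.18). TEK, the angiopoietin receptor, measured 3.46, 3.48 and 3.86 in mandibular cultures, against 4.67, 4.02 and 3.66 in tibial cultures. It lay below the lower quartile on 3 arrays. In all, 4 of the 9 were higher on tibial 1 and on tibial 2 than on any other array, as were 989 of all 10872 named genes. The sites did not overlap for 3 of the 9, against 6.92% of all probe sets. Of these, PECAM1 and ESAM were lower in mandibular cultures and KDR was higher, by 0.45 (SE 0.19). At an unadjusted p under 0.05 in limma there were 2 of the 9, against 3.03% of all probe sets, and none passed after adjustment. FLT1, another receptor for VEGF, was at 8.14 on mandibular 2 and at 4.16 to 4.91 elsewhere. The part of endothelial RNA in the VCAM1 values was not tested. The mean of the list, FLT1 included, was 5.11 ± 0.26 in mandibular and 5.11 ± 0.20 in tibial cultures (SD, n = 3 each). The FLT1 value on mandibular 2 raised the mandibular mean, so the equal means do not show equal endothelial RNA. By array the list mean was 4.92, 5.41 and 4.99 in mandibular cultures, against 5.32, 5.09 and 4.93 in tibial cultures. Of the 9 genes 4 were higher and 5 lower in mandibular cultures, with a median difference of -0.25. Of the erythroid and megakaryocyte genes 6 of 11 were measured, all below the array median on all arrays. Of the smooth muscle and pericyte genes 8 of 12 were measured, with 3 higher and 5 lower in mandibular cultures. In limma 0 passed or had an unadjusted p under 0.05, against 0% and 3.03% of all probe sets.

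Of the genes that work with VCAM1, 16 of 19 were measured. In limma 0 passed and 0 had an unadjusted p under 0.05, against 0% and 3.03% of all probe sets. ITGA4, a chain of its integrin partner on leukocytes, measured 5.90, 4.84 and 6.44 in mandibular cultures, against 6.47, 5.73 and 5.54 in tibial cultures, without the order of VCAM1. ITGB1, the other chain, was between 12.08 and 12.52. ICAM1, a related adhesion molecule, measured 9.55, 9.87 and 9.41 in mandibular cultures, against 10.13, 9.97 and 9.34 in tibial cultures. It thus had the order of VCAM1 on tibial 1, tibial 2 and mandibular 2, over a far smaller range. TNFAIP3, a target and inhibitor of NF-kB signalling, differed by -0.51 (SE 0.44), by -0.05 without tibial 1, by -0.33 without mandibular 3, by -0.79 without tibial 3 and by -0.81 without mandibular 2. SELE, an endothelial adhesion molecule, lay between 2.71 and 3.41.

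Of the CXCL12 genes, 6 of 8 were measured. In limma 0 passed, with 0 at an unadjusted p under 0.05, against 0% and 3.03% of all probe sets. CXCR4, the signalling receptor for CXCL12, measured 4.00, 4.69 and 4.36 in mandibular cultures, against 6.59, 5.47 and 4.42 in tibial cultures. Its 2 highest values were those of tibial 1 and tibial 2, as for CXCL12, in the opposite order. The difference was -1.14 (SE 0.52), and -0.60 without tibial 1. ACKR3, the scavenging receptor for CXCL12, measured 9.33, 9.32 and 10.09 in mandibular cultures, against 9.08, 9.24 and 9.93 in tibial cultures, and was highest on the arrays numbered 3. MMP9, a protease of osteoclasts and myeloid cells that can cleave CXCL12, differed by -2.88 (SE 1.26). Without mandibular 2 and tibial 3 it differed by -5.15, with an adjusted p of 0.00598 in limma. In that fit CXCR4 differed by -1.85, with an adjusted p of 0.157 in limma. The fit was chosen after the data were seen and called 0.708% of all probe sets.

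Among other niche factors 15 of 18 were measured, with 7 higher and 8 lower in mandibular cultures and a median difference of -0.12. None passed in limma and 0 had an unadjusted p under 0.05, against 0% and 3.03% of all probe sets. KITLG, the stem cell factor, measured 8.19, 9.06 and 8.53 in mandibular cultures, against 8.37, 9.42 and 8.36 in tibial cultures. JAG1, a Notch ligand, measured 8.81, 11.34 and 9.88 in mandibular cultures, against 10.09, 9.25 and 8.63 in tibial cultures. Mandibular 2 was thus highest for JAG1, and tibial 2 and mandibular 2 for KITLG. ANGPT1, which keeps blood stem cells quiescent, lay between 2.53 and 3.60. It was below the lower quartile of every array, at levels that cannot be told from background.

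The transcription factors EBF1 and EBF3, which in mouse marrow maintain the CXCL12-rich stromal cells, were described in the same list. EBF3 measured 5.53, 6.14 and 5.51 in mandibular cultures, against 6.97, 6.92 and 5.60 in tibial cultures, a difference of -0.77 (SE 0.39). EBF1 measured 8.35, 9.23 and 8.59 in mandibular cultures, against 9.79, 9.84 and 8.47 in tibial cultures, a difference of -0.64 (SE 0.42). Without tibial 2 the difference of EBF1 was -0.41, and without tibial 3 those of EBF1 and EBF3 were -1.09 and -1.22. Both were highest on tibial 1 and tibial 2, with mandibular 2 next, as for CXCL12. Without mandibular 2 and tibial 3 EBF3 differed by -1.42, with an adjusted p of 0.0347 in limma, and EBF1 by -1.35, with one of 0.0501. FLT3LG, a growth factor for progenitors and dendritic cells, differed the other way, by 0.38 (SE 0.16), and by 0.25 without tibial 1. Without mandibular 2 and tibial 3 it differed by 0.57, with an adjusted p of 0.341 in limma. That fit, chosen after the data were seen, called 0.708% of all probe sets.

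CD44 had a profile unlike that of VCAM1 and close to those of several genes of dividing cells. Its 5 nearest genes, at 0.04 to 0.10 log2 units, were CENPO, CAV1, WEE1, HIST1H2BD and CENPK. CENPO, a kinetochore protein, measured 6.20, 6.07 and 6.77 in mandibular cultures, against 5.01, 5.57 and 6.72 in tibial cultures. CAV1, the coat protein of caveolae, measured 10.76, 10.80 and 11.48 in mandibular cultures, against 9.81, 10.28 and 11.39 in tibial cultures. As for CD44, the arrays numbered 3 were highest and tibial 1 and tibial 2 lowest for both.

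The list of cell cycle genes, 11 of 25 measured, was likewise highest on the arrays numbered 3 and lowest on tibial 1 and tibial 2. Its mean was 7.57, 7.61 and 8.50 on mandibular 1, 2 and 3, against 6.05, 6.63 and 8.10 on tibial 1, 2 and 3. All 11 were higher in mandibular cultures, as were 5582 of all 10872 named genes, and the median difference of the 11 was 1.01. In limma 0 passed, with 0 at an unadjusted p under 0.05, against 0% and 3.03% of all probe sets. TPX2, a spindle assembly factor, differed by 1.22 (SE 0.57), by 0.79 without tibial 1 and by 1.87 without tibial 3. The part of proliferation in the CD44 values was not tested.

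Of the genes around CD44, 13 of 16 were measured. In limma 0 passed, with 0 at an unadjusted p under 0.05, against 0% and 3.03% of all probe sets. HMMR, another hyaluronan receptor that also acts on the spindle, measured 7.16, 7.12 and 8.29 in mandibular cultures, against 5.51, 6.35 and 7.84 in tibial cultures, in the order of CD44. EZR, which links CD44 to actin, was also highest on the arrays numbered 3. It differed by 0.42 (SE 0.30), by 0.17 without tibial 1, by 0.25 without mandibular 3 and by 0.71 without tibial 3. The proteins that CD44 or hyaluronan binds did not have that order. SPP1, osteopontin, measured 9.84, 11.53 and 10.25 in mandibular cultures, against 12.05, 10.92 and 9.16 in tibial cultures, and VCAN, a proteoglycan that binds hyaluronan, 9.93, 11.17 and 9.97 in mandibular cultures, against 11.37, 11.30 and 9.27 in tibial cultures. SRGN, a proteoglycan of blood cell granules that binds CD44, measured 3.18, 6.21 and 3.73 in mandibular cultures, against 9.06, 8.13 and 4.51 in tibial cultures. Its values were highest on tibial 1 and tibial 2, and it lay below the lower quartile on 2 arrays. Without mandibular 2 and tibial 3 it differed by -5.14, with an adjusted p of 0.00981 in limma. In that fit HMMR and EZR had adjusted p of 0.225 and 0.289 in limma. The fit was chosen after the data were seen and called 0.708% of all probe sets. HAS1, a hyaluronan synthase, stayed between 4.36 and 4.83.

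**Figure D5:**
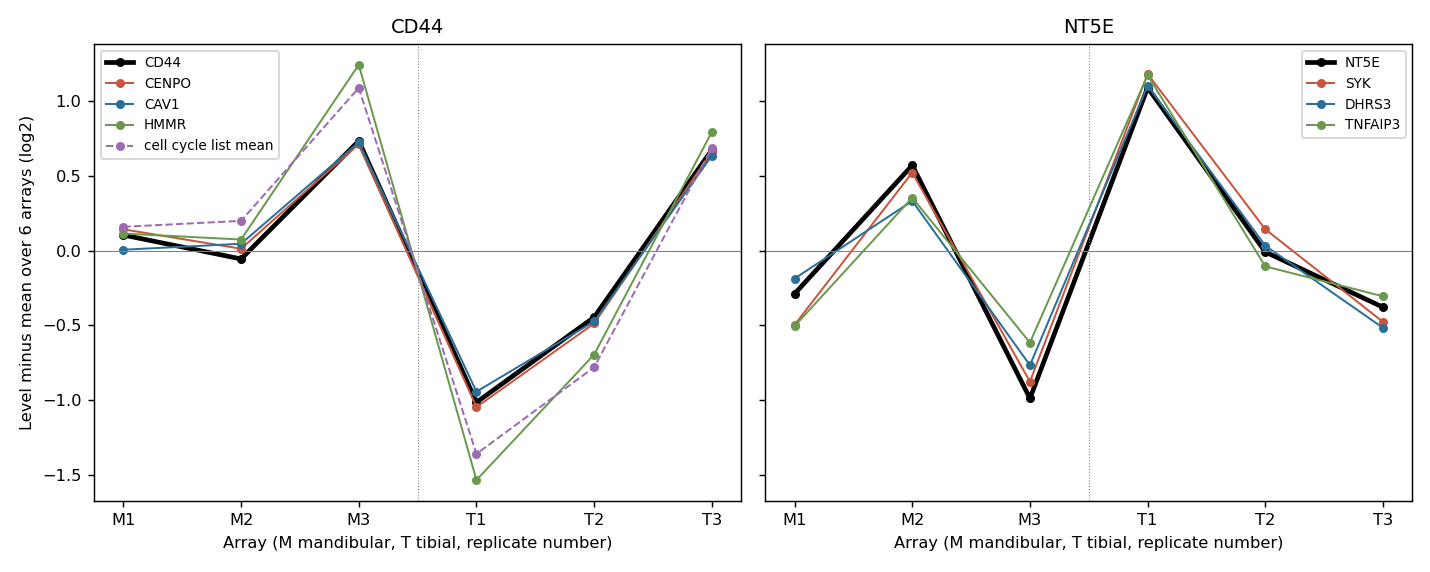
Level minus its own mean over the 6 arrays (log2) on the mandibular arrays (M) and the tibial arrays (T), for CD44 with CENPO, CAV1, HMMR and the mean of the cell cycle list (left), and for NT5E with SYK, DHRS3 and TNFAIP3 (right). CD44 is highest on the arrays numbered 3 and lowest on tibial 1, while NT5E is highest on tibial 1 and next on mandibular 2.

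NT5E was highest where CD44 was lowest. Its 5 nearest genes, at 0.13 to 0.22 log2 units, were SYK, DHRS3, GATM, TNFAIP3 and GRB14. SYK, a kinase of immune receptor signalling, measured 4.17, 5.19 and 3.79 in mandibular cultures, against 5.85, 4.81 and 4.19 in tibial cultures. DHRS3, an enzyme of retinoid metabolism, measured 7.49, 8.01 and 6.91 in mandibular cultures, against 8.78, 7.71 and 7.16 in tibial cultures. For both, as for NT5E, tibial 1 was highest, mandibular 2 next and mandibular 3 lowest.

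Of the genes that handle extracellular adenosine, 9 of 15 were measured, with 3 higher and 6 lower in mandibular cultures. In limma 0 passed or had an unadjusted p under 0.05, against 0% and 3.03% of all probe sets. ENTPD1 (CD39), which supplies AMP to NT5E, measured 7.87, 9.20 and 8.50 in mandibular cultures, against 9.31, 8.57 and 8.83 in tibial cultures. ENPP1, another ectoenzyme that makes AMP, measured 7.86, 9.66 and 8.47 in mandibular cultures, against 9.87, 8.38 and 8.02 in tibial cultures. Tibial 1 and mandibular 2 were the highest arrays for NT5E, ENTPD1 and ENPP1 alike. ADORA1, an adenosine receptor, was highest on the same arrays, at 7.48 on mandibular 2 and 7.15 on tibial 1, and lay between 5.49 and 6.30 elsewhere. ADORA2A, the receptor best known on leukocytes, stayed between 5.85 and 6.34.

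ENG was nearest in profile to NTN4, GMNN, KANK1, RASL11B and MMP1, at 0.13 to 0.17 log2 units. NTN4, a netrin of basement membranes, measured 7.62, 7.22 and 7.61 in mandibular cultures, against 7.22, 6.25 and 6.89 in tibial cultures. GMNN, an inhibitor of DNA replication licensing, measured 7.02, 6.45 and 6.95 in mandibular cultures, against 6.32, 5.98 and 6.45 in tibial cultures. On both, as on ENG, mandibular 1 and mandibular 3 were highest and tibial 2 lowest.

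Of the TGFB and BMP genes around ENG, 17 of 23 were measured, with 10 higher and 7 lower in mandibular cultures and a median difference of 0.05. None passed in limma and 1 of the 17, SMAD6, had an unadjusted p under 0.05, near the 3.03% of all probe sets. SMAD6, an inhibitor of BMP signalling that BMP itself induces, measured 9.55, 9.62 and 9.47 in mandibular cultures, against 8.47, 8.90 and 9.41 in tibial cultures, without overlap and with a difference of 0.62 (SE 0.23), or 0.39 without tibial 1. SMAD7, an inhibitor of TGFB signalling, differed by 0.59 (SE 0.33), by 0.32 without tibial 1 and by 0.89 without tibial 3.

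ID1, a target of BMP signalling, measured 8.42, 7.35 and 8.95 in mandibular cultures, against 5.87, 7.09 and 8.82 in tibial cultures, and was lowest on tibial 1. The signalling receptors varied less. TGFBR1 lay between 8.19 and 8.99, TGFBR2 between 8.33 and 8.90, BMPR2 between 10.22 and 10.90 and ACVRL1, the endothelial type receptor that pairs with ENG, between 5.35 and 5.99. TGFB3, a ligand, had a wide range, with 6.67, 10.05 and 8.03 in mandibular cultures, against 9.01, 9.07 and 6.70 in tibial cultures, and its order was not that of ENG.

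Of the 10 listed partners of THY1, all were measured and 2 had a range of 1 or more. In limma 0 passed or had an unadjusted p under 0.05, against 0% and 3.03% of all probe sets. The integrin chain ITGB1 lay between 12.08 and 12.52, and the kinase gene SRC between 6.57 and 6.99. FYN, the Src family kinase that THY1 signals through in T cells and neurons, measured 9.19, 8.93 and 9.35 in mandibular cultures, against 8.37, 8.46 and 9.24 in tibial cultures, a difference of 0.47 (SE 0.25), or 0.31 without tibial 1 and 0.74 without tibial 3. It was lowest on tibial 1 and tibial 2. ITGB3, a chain of the vitronectin receptor, differed by 0.39 (SE 0.23), and by 0.17 without tibial 2.

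Genes of the CD34 family and of blood progenitors were measured for 8 of 11 members, 4 higher and 4 lower in mandibular cultures. In limma 0 passed or had an unadjusted p under 0.05, against 0% and 3.03% of all probe sets. PODXL, a sialomucin related to CD34, lay between 3.92 and 4.55. KIT, the receptor of progenitors and mast cells, measured 5.03, 5.93 and 5.10 in mandibular cultures, against 7.02, 5.18 and 4.09 in tibial cultures, with tibial 1 highest. CD34 did not stand out on that array, at 5.06.

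Of the other stromal surface markers 15 of 21 were measured, 7 of them with a range of 1 or more and 13 above the array median on all arrays, with 7 higher and 8 lower in mandibular cultures and a median difference of -0.02. None passed in limma and 1 of the 15, NES, an intermediate filament gene of some perivascular stromal cells, had an unadjusted p under 0.05, near the 3.03% of all probe sets. Its difference was 0.41 (SE 0.15), and 0.22 without mandibular 2 and tibial 3. PDGFRB, a growth factor receptor of stromal cells and pericytes, measured 10.96, 11.12 and 10.84 in mandibular cultures, against 11.15, 10.92 and 10.45 in tibial cultures. MCAM (CD146), a marker of perivascular stromal cells, measured 6.59, 8.55 and 6.68 in mandibular cultures, against 7.71, 6.28 and 6.33 in tibial cultures, with mandibular 2 highest. ALCAM (CD166) had its lowest value on that array, at 6.65, and lay between 7.43 and 8.52 elsewhere.

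Of the stromal matrix genes 13 of 16 were measured and 12 lay above the array median on all arrays. COL1A1, the main chain of bone collagen, stayed between 13.24 and 13.49. None of the 13 passed in limma or had an unadjusted p under 0.05, against 0% and 3.03% of all probe sets. Of the 13, 4 had a range of 1 or more, the widest being POSTN at 7.39. The summed level of the list ran between 146.8 and 155.3 in mandibular and between 149.7 and 154.7 in tibial cultures. It is a sum of log2 levels in which POSTN weighs heavily, and not an amount of RNA.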

How the data were processed

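The deposited values are log2 levels of 27558 probe sets on 6 arrays. The tools named in the submitters' processing notes are RMA, Transcriptome Analysis Console 3.0 and Affymetrix Expression Console, with no role stated for each. RMA equalises the arrays, so a shift shared by all genes would be removed. The sources used here do not give settings or a genome build, so neither coordinates nor sequences are printed.

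Names came from GEO's platform annotation, with 7 symbols updated by Entrez number. Of the probe sets, 13157 carry 1 symbol, 523 carry several and 13878 are unnamed. Without placeholders, 11691 probe sets named 10872 genes. CYBB was matched as GP91-PHOX.

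Sites were compared unpaired with limma 3.58.1 in R 4.3.3 (lmFit, eBayes) by two-sided tests. Adjusted p are Benjamini-Hochberg values over the whole table. SE and 95% intervals are limma's. The fit was tested on simulated data. The labels call the samples biological replicates without naming the animals, so p-values measure the spread between these arrays.

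The genes, 18 other lists and tests were chosen with earlier results of these data known. Named genes are the 7, positional genes, list members by level, up to 4 per list by smallest p for differences, and the 5 nearest profiles of each of the 7 with a range of at least 1. Alternatives were array centring, a low-level filter, trend and robust fitting, array weights, the replicate block, other probe sets, adjustment over genes and leaving out arrays.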

Additional observations from a re-analysis of the deposited data

How the results depend on the processing

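With the alternatives run, 0 of the 7 genes passed in limma under any of them. The sign of THY1 turned to 0.01 with each array centred on its median. When each array was left out in turn, THY1 ranged over -0.06 to 0.04 and CD34 over -0.31 to 0.00, both signs turning without mandibular 3, while the other 5 kept their direction: NT5E at -0.87 to -0.04, ENG at 0.33 to 0.70, CD44 at 0.15 to 0.99, VCAM1 at -4.03 to -1.31 and CXCL12 at -0.61 to -0.21. The cause was not tested. The number of probe sets called was 0 with all arrays, 0 to 2 when each array was left out (1 without tibial 1, 2 without tibial 3) and 195 with mandibular 2 and tibial 3 both left out, an alternative added after the data were seen. Adjusting over 1 probe set per gene also gave 0 calls among the 7. The second NT5E probe set gave -0.43 and the mean of both -0.45. The numbers were not taken to pair the cultures, because no label ties a number to an animal. Same-numbered mandibular and tibial arrays deviated from their site means with correlations of -0.033, 0.212 and 0.473. Those means include mandibular 2 and tibial 3, so the correlations cannot show whether same-numbered cultures share a pig. Only mandibular 3 among the mandibular arrays correlated best with its own number. With the replicate number as a block the differences were unchanged, the SE of ENG was 0.12 and that of VCAM1 0.94, and 2 of the 7 (ENG and VCAM1) had an unadjusted p under 0.05 in limma, against 0 of the 7 without the block. With the block 0 probe sets were called, with 1511 at an unadjusted p under 0.05 against 836 without the block. Low signal limits CXCL12 and CD34, which lay below every array median.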

Other observations

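Further genes of the marker lists, chosen after their values were seen, had wide ranges. POSTN, a matrix protein of periosteum and fibroblasts, measured 11.89, 5.60 and 9.59 in mandibular cultures, against 7.01, 4.50 and 11.40 in tibial cultures. It was high on mandibular 1, mandibular 3 and tibial 3, the arrays with the lowest VCAM1. ANPEP (CD13), an ectopeptidase of stromal and myeloid cells, measured 10.85, 10.76 and 9.55 in mandibular cultures, against 11.43, 10.62 and 8.43 in tibial cultures. The arrays numbered 3, where CD44 was highest, held its lowest values. ABCC9, a potassium channel subunit of pericytes, measured 3.08, 3.91 and 3.21 in mandibular cultures, against 5.57, 4.29 and 2.71 in tibial cultures. Tibial 1 was highest, tibial 2 next and mandibular 2 after them, as for VCAM1. ABCC9 lay below the array median on all 6 arrays and below the lower quartile on 3. Its value on mandibular 2 was near the lower quartile, so its place in that order cannot be told from background. DCN, a small proteoglycan of connective tissue, measured 11.72, 9.99 and 11.34 in mandibular cultures, against 11.26, 11.93 and 11.98 in tibial cultures, with its lowest value on mandibular 2.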
